A study of Mus musculus with 19 samples.

Results

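The genes described here encode the postsynaptic apparatus of the neuromuscular junction, the synapse at which a motor axon excites a muscle fibre. They were chosen by symbol: the receptor kinase gene Musk and its partners Lrp4, Dok7 and Rapsn, the acetylcholine receptor subunit genes Chrna1, Chrnb1, Chrnd, Chrne and Chrng, and the adhesion molecule gene Ncam1. Of these 10 genes, 9 had a row among the 13067 genes of the expression table, and Chrng was not analysed here. All 9 passed the filter on low values that left 11141 tested genes. Chrnd passed only because of its control values, with at least 1 RPKM in 0 of the 5 C26_rol, 2 of the 7 C26_veh and 7 of the 7 ctr libraries. RPKM is reads per kilobase of gene per M (mega) reads.

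Messenger RNA of whole gastrocnemius, a calf muscle, was sequenced in 19 libraries of 3 groups. C26_rol (5 libraries) came from mice with a tumour of C26 cells, a mouse adenocarcinoma line, that were given rolipram, an inhibitor of the cyclic AMP-degrading phosphodiesterase PDE4. C26_veh (7 libraries) came from mice with the same tumour given vehicle, and ctr (7 libraries) from healthy mice without a tumour. Tumours were grown in male Balb/c animals injected in the flank at the age of 2 months, and rolipram at 3 mg/kg or its ethanol-in-saline vehicle was given into the abdominal cavity starting on day 4. For the controls, the labels give no strain, sex, age or injection, so a difference from ctr joins the tumour, the injections and any difference in those traits, which cannot be told apart. Nothing in the labels says that each library was a separate animal, and the p-values measure the spread between libraries. In whole muscle, fewer cells or nuclei of a type and less RNA per cell cannot be told apart.

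At the junction, agrin released by the nerve binds the co-receptor LRP4, which activates the kinase MuSK. The adaptor DOK7 sustains that activity, and rapsyn gathers acetylcholine receptors into dense clusters beneath the nerve ending. In adult rodent muscle these genes are transcribed mostly by the few nuclei that lie under the synapse, because electrical activity holds them down along the rest of the fibre. Cutting the nerve is known to lift that block for many of them, including Musk, Chrna1, Chrnd, the fetal subunit gene Chrng and Ncam1, whereas Chrne, the adult subunit gene, depends more on local signals from the nerve.

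The deposited table gives no read totals. Whole reads were recovered for all 9 genes, because the low values of other genes lay on whole multiples of 1 read within a tolerance of 0.05 read. Behind the values stood between 26 reads, for Chrnd in a C26_rol library, and 5548 reads, for Musk in C26_veh replicate 3, and the largest library was 2.75 times the smallest. Along the first principal component of all genes (66.8% of the variance), the 7 ctr libraries (-50.3 to -42.4) stood apart from the C26_rol (6.07 to 34.8) and C26_veh libraries (8.93 to 57.6). C26_veh replicates 3 and 7 lay farthest from their group, at opposite ends of that component, and the main results are given with and without them. Fibre genes dominated every library, with the summed level of 9 fibre markers at 36700 to 61410 RPKM in C26_rol, 36780 to 60390 in C26_veh and 59790 to 75260 in ctr. The part of this difference in the values below was not tested, and markers of axons and motor neurons were not analysed here.

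Promoter sequence, from 250 bases before the start site to 50 after it, was available for 5 of the 9 genes in a RefSeq table of build GRCm38.p6. Those of Chrne and Chrnb1 are shown because these subunit genes moved in opposite directions against ctr, and that of Musk because it differed most between the C26_rol and C26_veh libraries. Capitals mark matches on either strand to the E-box CANNTG, the class of site that myogenic factors such as myogenin bind, and to the N-box CCGGAA, an element known from synaptic genes that GABP binds. The sequence CAGCTG is one form of the E-box.
Chrne promoter, chr11:70619145-70619444, minus strand: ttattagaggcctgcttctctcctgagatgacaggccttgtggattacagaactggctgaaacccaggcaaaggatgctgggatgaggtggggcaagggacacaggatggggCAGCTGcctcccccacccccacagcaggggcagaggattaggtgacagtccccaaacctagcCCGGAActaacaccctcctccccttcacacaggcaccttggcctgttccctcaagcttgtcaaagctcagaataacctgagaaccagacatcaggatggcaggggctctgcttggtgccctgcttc
Chrnb1 promoter, chr11:69795888-69796187, minus strand: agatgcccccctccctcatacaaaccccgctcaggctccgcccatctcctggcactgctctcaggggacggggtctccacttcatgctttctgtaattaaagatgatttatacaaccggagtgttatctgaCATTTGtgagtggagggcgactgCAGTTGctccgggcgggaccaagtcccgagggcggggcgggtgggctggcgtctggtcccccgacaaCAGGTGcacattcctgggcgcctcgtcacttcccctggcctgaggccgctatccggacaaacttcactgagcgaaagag
Musk promoter, chr4:58285712-58286011, plus strand: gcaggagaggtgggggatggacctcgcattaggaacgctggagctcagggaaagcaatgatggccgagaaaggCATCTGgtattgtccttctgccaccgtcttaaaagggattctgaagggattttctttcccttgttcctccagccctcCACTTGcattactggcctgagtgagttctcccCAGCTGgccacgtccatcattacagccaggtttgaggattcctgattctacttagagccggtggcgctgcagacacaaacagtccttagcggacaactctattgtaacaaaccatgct

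Counting from the start site, the Chrne window held a CAGCTG at position -138 and the N-box at position -76. The Chrnb1 window held 3 other E-boxes, at positions -119, -96 and -29, and no N-box. In the Musk window lay 3 E-boxes at positions -177, -100 and -68, the last of them CAGCTG. The Chrna1 window held CAGCTG at positions -92 and -44 and another E-box between them, and the first of 2 Dok7 windows held 1 E-box. Such letters are common: of 32851 promoters of the same length, 72.3% held CANNTG, 16.3% held CAGCTG and 14.9% held CCGGAA, so the matches only describe these windows.

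The adult receptor subunit gene Chrne was far lower in the muscle of tumour-bearing mice than in ctr muscle, with or without rolipram. It lies on chromosome 11 (70614883 to 70619216, GRCm38, minus strand) and encodes the epsilon subunit that replaces gamma as the synapse matures. The 5 C26_rol libraries had 2.72, 2.58, 4.46, 3.11 and 1.76 RPKM. The C26_veh libraries had 0.720 to 3.99 RPKM with a median of 2.57, and the ctr libraries 13.1 to 17.6 with a median of 14.5. Neither tumour group overlapped with ctr, and the tumour groups overlapped with each other. The mean was 2.62 ± 1.31 RPKM in C26_veh (SD, n = 7) and 14.6 ± 1.47 in ctr (n = 7), 5.58-fold lower in C26_veh, a log2 change of -2.20 on the log2(RPKM + 1) scale (SE 0.20, limma adjusted p = 1.06e-08). Against ctr, C26_rol was lower by 5.00-fold (2.93 ± 0.989 RPKM, n = 5, log2 change -2.02, adjusted p = 2.62e-07). Without C26_veh replicate 3 the C26_veh change was -2.04, and without replicate 7 it was -2.29.

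Chrnd, the delta subunit gene on chromosome 1 (87190607 to 87200070), was also lower in both tumour groups, at a level near the limit of the table. Its values were 0.754, 0.502, 0.553, 0.814 and 0.976 RPKM in C26_rol, 0.489 to 1.07 (median 0.746) in C26_veh and 1.09 to 2.45 (median 1.60) in ctr. No library of a tumour group reached the lowest ctr library. The change was -0.54 in C26_veh (adjusted p = 0.000109) and -0.58 in C26_rol (adjusted p = 0.000206), and the added 1 RPKM compresses it: the ratio of means was 2.06-fold lower in C26_veh and 2.21-fold lower in C26_rol than in ctr. These values rest on 26 to 91 reads in C26_rol, 43 to 85 in C26_veh and 72 to 141 in ctr. Because Chrnd passed the filter only through ctr, where it is high, its p-values and its place in the counts below only describe the values.

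Chrnb1, which encodes the beta subunit and lies on chromosome 11 as well (69784036 to 69795943, minus strand), went the other way. The C26_rol libraries had 49.1, 49.0, 40.5, 50.6 and 48.1 RPKM. The C26_veh libraries had 25.7 to 42.4 RPKM (median 36.0), and the ctr libraries 12.6 to 16.4 (median 14.2). Both tumour groups lay wholly above ctr, and 4 of the 5 C26_rol libraries lay above every C26_veh library. The mean was 47.5 ± 3.98 RPKM in C26_rol, 35.6 ± 5.25 in C26_veh and 14.6 ± 1.46 in ctr. Against ctr, the gene rose 3.26-fold in C26_rol (log2 change 1.64, adjusted p = 1.85e-10) and 2.44-fold in C26_veh (log2 change 1.22, SE 0.095, adjusted p = 1.32e-09). Beyond the tumour difference, C26_rol exceeded C26_veh by 0.41 (95% interval reported by limma 0.20 to 0.63, adjusted p = 0.0113), a call that was lost, at adjusted p = 0.0508, when only those 2 groups were fitted. Without C26_veh replicate 3 the C26_rol against C26_veh change was 0.34 (adjusted p = 0.0145), and without replicate 7 it was 0.43.

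Chrna1, the alpha subunit gene that carries the acetylcholine-binding residues (chromosome 2, 73563215 to 73580338, minus strand), did not pass the test in any comparison. It had 7.72, 5.87, 8.27, 6.29 and 5.18 RPKM in C26_rol, 1.76 to 8.74 (median 4.27) in C26_veh and 3.95 to 6.35 (median 4.26) in ctr. The C26_veh libraries spread on both sides of the ctr range, and the C26_rol libraries lay within or above it. The change was 0.02 in C26_veh against ctr (adjusted p = 0.950, 95% interval -0.40 to 0.43), with a sign that turned under other scalings. For C26_rol against ctr it was 0.47 (adjusted p = 0.0764), which passed at 0.0036 when only those 2 groups were fitted.

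**Figure D1:**
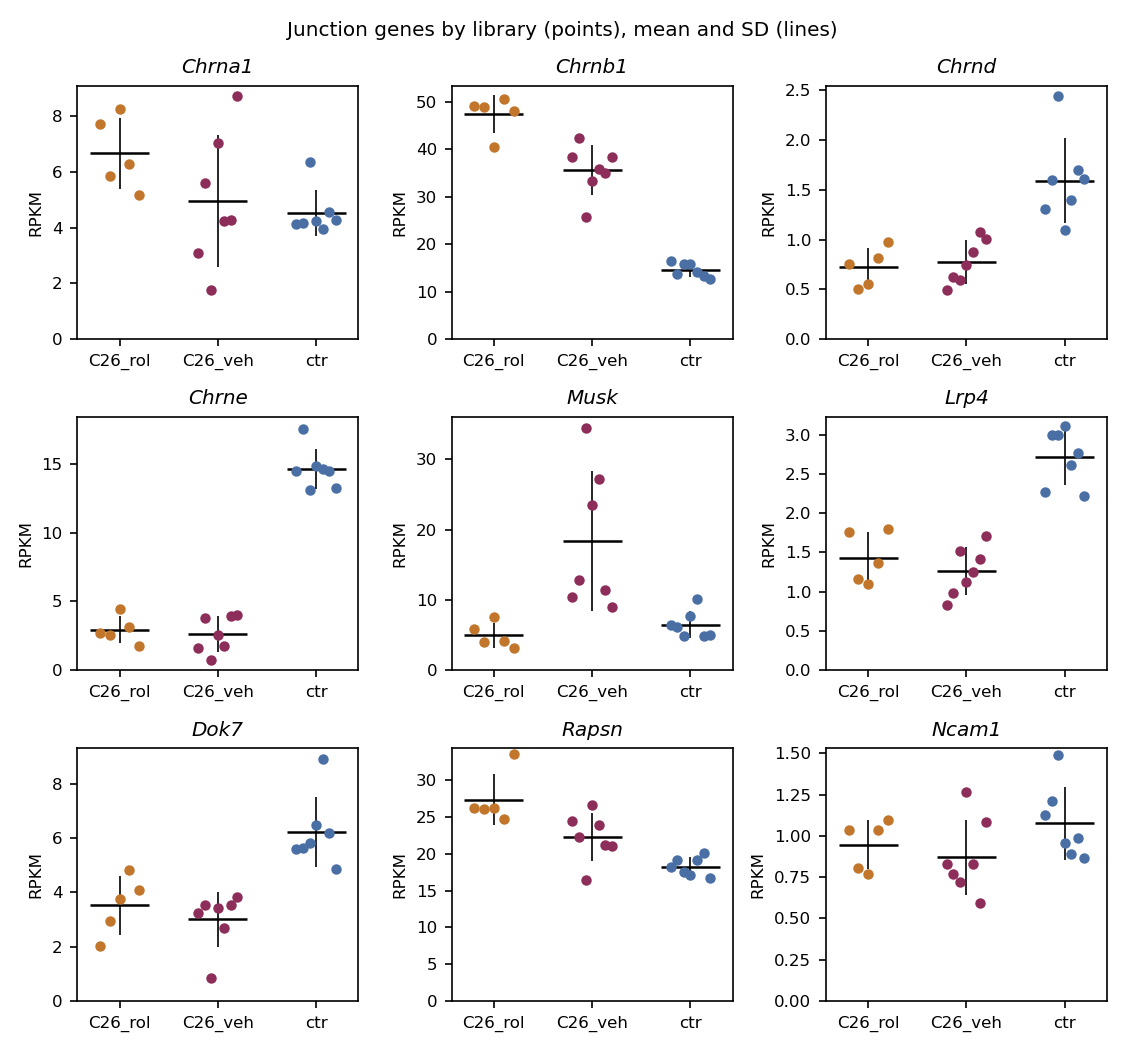
RPKM (linear axes that start at 0) of the 9 junction genes in each library, 1 panel per gene, with C26_rol left of C26_veh and ctr; points are libraries, horizontal lines group means and vertical lines 1 SD to each side. Chrne, Chrnd, Lrp4 and Dok7 sit lower in both tumour groups than in ctr, Chrnb1 sits higher, and Musk is high in C26_veh, from 9.01 to 34.5 RPKM.

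Because RPKM is scaled by gene length, the subunits are set beside each other here. The gene lengths used are not given, and levels of different genes within a group depend on them. A ratio of 2 genes compared between groups does not. The summed level of the 4 measured subunits was 57.8 ± 2.93 RPKM in C26_rol, 44.0 ± 7.84 in C26_veh and 35.3 ± 2.09 in ctr. Chrne made up 5.10 ± 1.92% of that sum in C26_rol, 5.70 ± 2.35% in C26_veh and 41.5 ± 3.76% in ctr, and Chrnb1 made up 82.1 ± 4.12%, 81.6 ± 5.85% and 41.2 ± 2.80% in the same order of groups. In RPKM, Chrne and Chrnb1 therefore stood near parity in ctr, with a ratio of levels of 1.01 ± 0.148 and a range of 0.828 to 1.27. The ratio was 0.0632 ± 0.0277 in C26_rol and 0.0716 ± 0.0326 in C26_veh, and the highest tumour library was at 0.112. Chrna1 made up 11.6 ± 2.50% of the sum in C26_rol, 10.9 ± 4.11% in C26_veh and 12.8 ± 2.01% in ctr, and Chrnd 1.25%, 1.78% and 4.51% in the same order. The fetal gamma subunit is not part of this sum, and transcript shares are not shares of receptor protein.

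**Figure D2:**
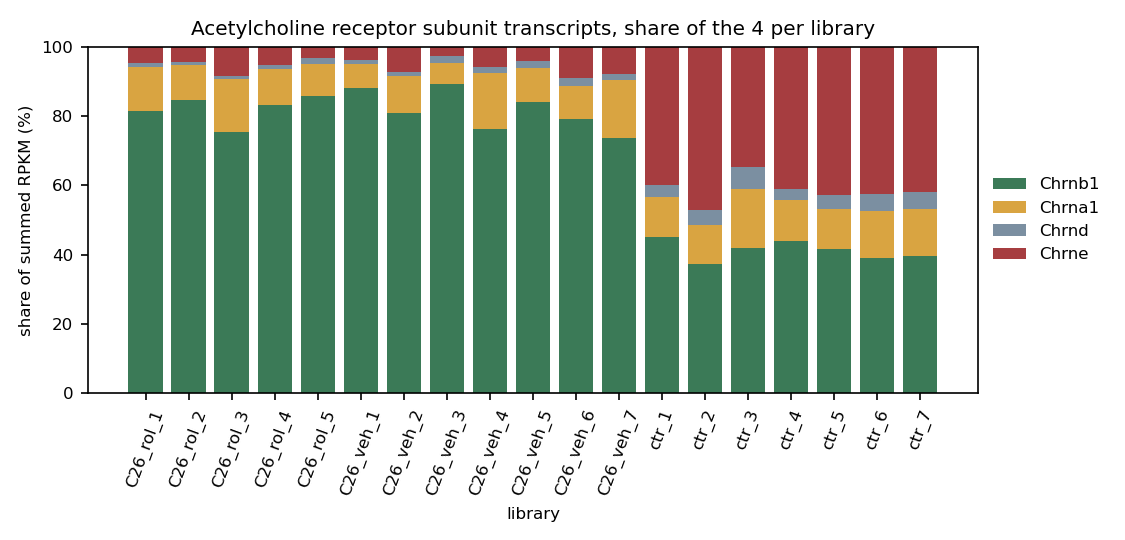
Make-up of the summed RPKM of 4 receptor subunit genes in each library (percent, stacked bars starting at 0), with C26_rol left of C26_veh and ctr. The Chrne part is 3.15 to 8.29% in C26_rol, 2.50 to 8.88% in C26_veh and 34.7 to 47.3% in ctr.

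Musk, on chromosome 4 (58285960 to 58374303, plus strand), was the gene of the group that differed most between rolipram and vehicle. Its levels in C26_rol were 5.88, 3.96, 7.58, 4.08 and 3.13 RPKM. In C26_veh they were 9.01 to 34.5 RPKM with a median of 12.9, and in ctr 4.88 to 10.1 with a median of 6.14. All 7 C26_veh libraries lay above all 5 C26_rol libraries, while 1 ctr library reached into the C26_veh range. The mean was 4.93 ± 1.79 RPKM in C26_rol (n = 5) and 18.4 ± 9.93 in C26_veh (n = 7), 3.73-fold lower with rolipram, a log2 change of -1.60 (SE 0.28, 95% interval -2.19 to -1.02, adjusted p = 0.00128). Without C26_veh replicate 3, the library with the most Musk, the change was -1.43 (adjusted p = 0.00173), and without replicate 7 it was -1.74.

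Musk rose 2.85-fold in C26_veh against ctr, where it averaged 6.46 ± 1.92 RPKM (n = 7), a log2 change of 1.26 (SE 0.26, adjusted p = 0.000218). In C26_rol the change against ctr was -0.35 and did not pass (adjusted p = 0.310). Only 2 of the 11141 tested genes had a more negative C26_rol against C26_veh change than Musk. These were Gm10309 (-2.59) and Gpnmb (-1.79), named after their values were seen, and Gpnmb did not pass the test (adjusted p = 0.104). The spread of Musk among C26_veh libraries was wide, with a coefficient of variation of 54.0%, against 36.3% in C26_rol and 29.7% in ctr.

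The co-receptor gene Lrp4 (chromosome 2, 91457511 to 91513779, plus strand) was lower in both tumour groups. It had 1.76, 1.16, 1.10, 1.36 and 1.79 RPKM in C26_rol, 0.830 to 1.71 (median 1.26) in C26_veh and 2.22 to 3.11 (median 2.76) in ctr. Every tumour library was below every ctr library. It fell by 0.72 in C26_veh (adjusted p = 2.23e-06, 2.15-fold by the means) and by 0.61 in C26_rol (adjusted p = 7.15e-05, 1.89-fold) against ctr.

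Dok7, the gene of the cytoplasmic activator of MuSK (chromosome 5, 35056766 to 35087839, plus strand), followed the same order. The C26_rol libraries had 2.02, 2.93, 3.75, 4.81 and 4.07 RPKM, the C26_veh libraries 0.866 to 3.81 (median 3.42) and the ctr libraries 4.86 to 8.91 (median 5.82). Neither tumour group overlapped with ctr. The change against ctr was -0.88 in C26_veh (adjusted p = 0.000266) and -0.69 in C26_rol (adjusted p = 0.00636), and without C26_veh replicate 3, whose Dok7 was the lowest, the C26_veh change was -0.71. The ratio of Musk to Dok7 RPKM was 0.769 to 2.92 in C26_rol, 2.36 to 39.8 in C26_veh and 0.789 to 1.19 in ctr.

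Rapsn, the gene of the receptor-clustering protein rapsyn (chromosome 2, 91035620 to 91045729, plus strand), was moderately higher in the tumour groups. It had 26.2, 26.2, 26.3, 24.7 and 33.5 RPKM in C26_rol, 16.4 to 26.7 (median 22.3) in C26_veh and 16.7 to 20.1 (median 18.3) in ctr. All C26_rol libraries exceeded all ctr libraries, and the C26_veh libraries overlapped with both. The change against ctr was 0.55 in C26_rol (adjusted p = 0.00012) and 0.26 in C26_veh (adjusted p = 0.0166), and the C26_veh call did not survive scaling by median of ratios (0.08, adjusted p = 0.424), and quantile normalisation turned its sign (-0.03). Relative to the summed receptor subunits, Rapsn stood at 0.476 ± 0.0749 in C26_rol, 0.515 ± 0.0789 in C26_veh and 0.518 ± 0.0447 in ctr.

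Ncam1, a cell adhesion gene that in rodents spreads over the whole fibre after nerve injury (chromosome 9, 49502136 to 49798925, minus strand), was at the bottom of the table's range. It had 1.03, 0.807, 0.767, 1.03 and 1.10 RPKM in C26_rol, 0.597 to 1.26 (median 0.830) in C26_veh and 0.869 to 1.49 (median 0.987) in ctr. The groups overlapped, and the changes against ctr were -0.15 in C26_veh (adjusted p = 0.118) and -0.09 in C26_rol (adjusted p = 0.433). Scaled by median of ratios, the C26_veh change was -0.25 and passed (adjusted p = 0.0101). Schwann cells and satellite cells make Ncam1 too, and 4.81% of its exonic bases lie under exons of the opposite-strand gene Gm11149. Summed over 13 Schwann cell and myelin markers, the level was 31.3 to 151 RPKM in C26_rol, 31.5 to 98.8 in C26_veh and 36.0 to 188 in ctr. Over 7 satellite cell markers it was 34.0 to 51.6, 43.7 to 69.3 and 20.7 to 28.1 RPKM in the same order of groups, mostly from Sdc4 and Cdh15. Pax7 and Myf5, the defining ones, averaged below 1 RPKM in each group, with their highest means in ctr. The part of these cells in the Ncam1 values was not tested.

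**Figure D3:**
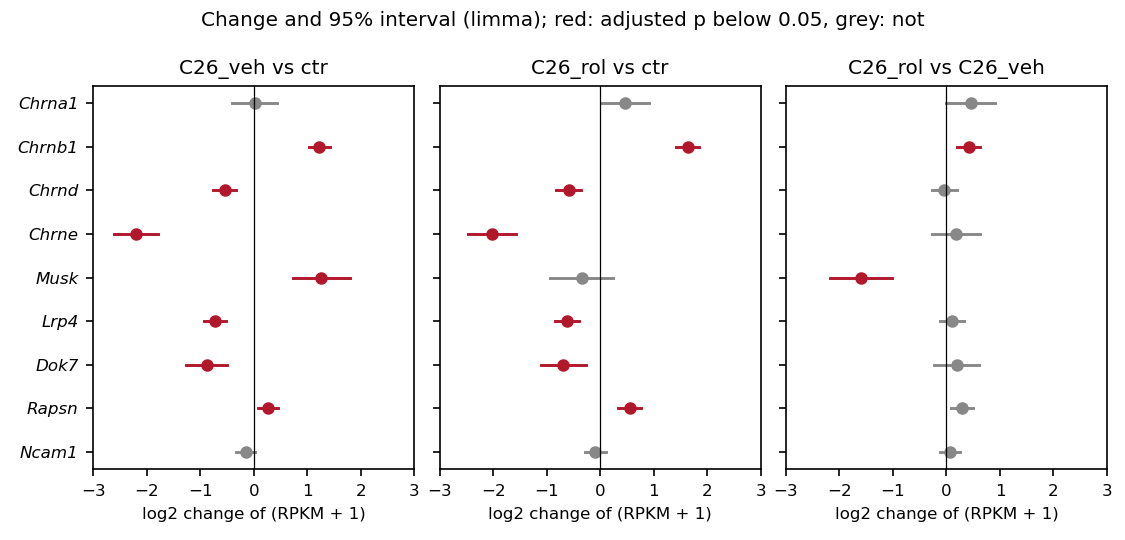
Log2 changes of log2(RPKM + 1) for the 9 genes in 3 comparisons, with 95% intervals from limma; red points passed at adjusted p below 0.05 and grey points did not. Musk stands at 1.26 in C26_veh against ctr and at -1.60 in C26_rol against C26_veh, and Chrne at -2.20 and -2.02 in the C26_veh and C26_rol comparisons with ctr.

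Counted over the group, C26_veh against ctr gave 3 higher (Musk, Chrnb1 and Rapsn), 4 lower (Chrne, Chrnd, Lrp4 and Dok7) and 2 that did not pass, at a background of 67.0% of all tested genes called (43.3% higher and 23.8% lower). So many called genes are what most of the transcriptome showed in that comparison, and the count is no result about these genes. The libraries of the compared groups did not overlap for 5 of the 9, against 39.1% of all tested genes. The median change was -0.15 for the 9 genes and 0.15 for all tested genes. Median-of-ratios scaling removes that general shift of 0.15: it gave 3745 higher and 3658 lower calls, where the values as deposited gave 4822 and 2646.

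For C26_rol against ctr, 2 genes were higher (Chrnb1 and Rapsn), 4 were lower (the same 4 genes as above) and 3 did not pass, at a background of 54.8% called (38.5% higher and 16.4% lower). Groups were apart for 6 of the 9 genes, against 35.4% of all genes, and the median change was -0.35, against 0.15 for all genes. Under median-of-ratios scaling the calls over all genes were 2895 higher and 2964 lower, in place of 4286 and 1824. Both comparisons use the same 7 ctr libraries.

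Rolipram against vehicle, the comparison without ctr, gave 1 higher gene (Chrnb1), 1 lower gene (Musk) and 7 that did not pass, at a background of 17.1% called (9.78% higher and 7.32% lower). Groups did not overlap for Musk alone, against 4.08% of all genes. For the genes that were low in both tumour groups, the C26_rol against C26_veh change and its 95% interval were 0.18 (-0.28 to 0.63) for Chrne, -0.04 (-0.28 to 0.19) for Chrnd, 0.11 (-0.12 to 0.33) for Lrp4 and 0.19 (-0.23 to 0.61) for Dok7. Each interval includes 0. Rises up to its upper bound (0.19 to 0.63) and falls down to its lower bound (-0.28 to -0.12) remain compatible with these values. Rapsn was at 0.29 (adjusted p = 0.0535) and Chrna1 at 0.45 (adjusted p = 0.159).

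**Figure D4:**
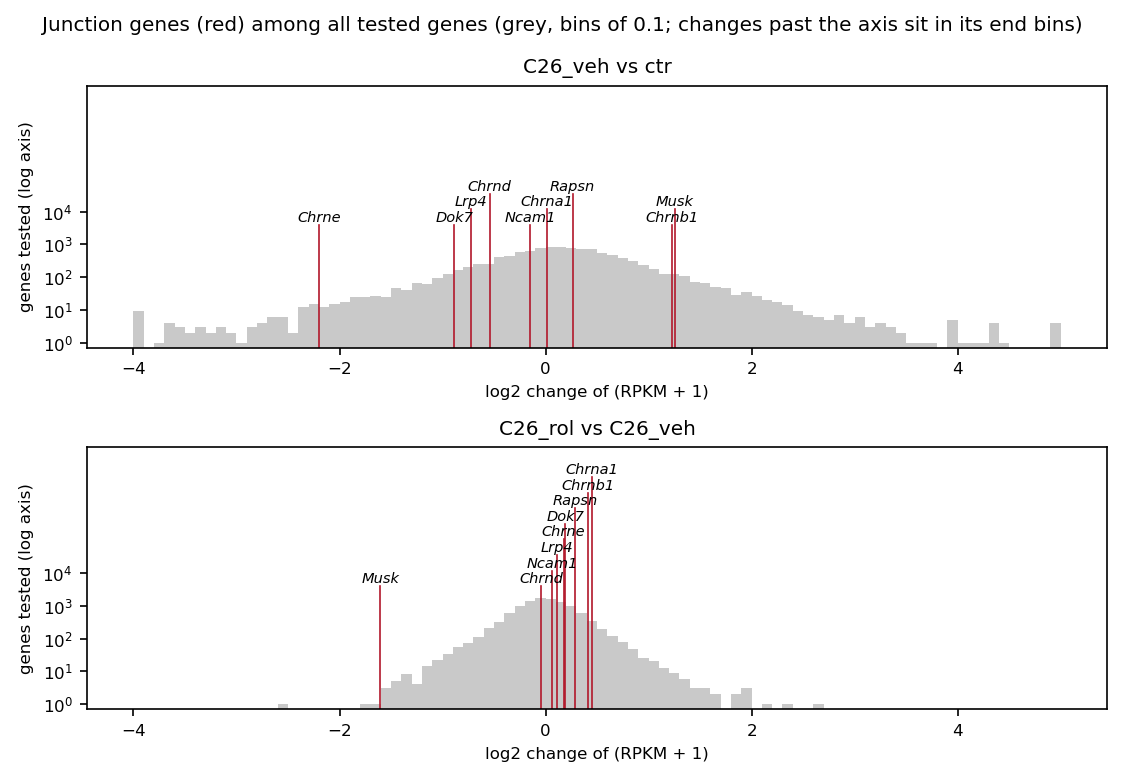
Histogram of the log2 changes of all 11141 tested genes (number of genes, log axis) with the 9 junction genes as labelled lines, whose heights only separate the labels, for C26_veh against ctr and C26_rol against C26_veh; changes beyond the axis are in its end bins. In the lower panel Musk (-1.60) stands near the low end of all genes and the others lie between -0.04 and 0.45.

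The junction genes did not vary together as one block from library to library. After each group's mean was subtracted, the highest Pearson correlation over the 19 libraries was 0.74 for Chrna1 with Chrne, followed by 0.61 for Dok7 with Chrne. The lowest was -0.55 for Musk with Chrnb1, and Musk was negative with 7 of the other 8 genes. Pairs share a library and its depth, and the values are descriptions. Within C26_veh, Musk against Dok7 gave r = -0.75 (exact permutation p = 0.00893, adjusted over 16 relations 0.143) and rho = -0.79 (exact permutation p = 0.048, adjusted 0.256). Without C26_veh replicates 3 and 5, the libraries with Musk farthest from the median, r was -0.33, so the relation rested on them, and none of the 16 relations passed.

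The genes most like each member in these deviations came from many classes. For Musk they were Fbxw11 (r = 0.91), Dnajb6 (0.86) and Klhl7 (0.85), and for Chrne 5730409E04Rik (0.95), Calm3 (0.95) and Cacnb1 (0.95), of which Cacnb1 encodes the beta subunit of the muscle calcium channel. Chrnb1 lay nearest to Ndufc2 (0.88), Coa6 (0.86) and H2afz (0.83), the first of them a subunit of respiratory complex I. For Dok7 the nearest were Pfkfb4 (0.89), Asb2 (0.86) and Pcbp4 (0.82), for Chrnd Cd200 (0.89), B4galt7 (0.85) and Anpep (0.84), and for Rapsn Zswim1 (0.84), Slc35e4 (0.80) and Mark4 (0.80). Chrna1 had 2610044O15Rik8, 1700020I14Rik and Nipa2 (0.87 each), Lrp4 had Pogz (0.78), Luzp1 (0.77) and Hivep1 (0.75), and Ncam1 had Mmgt1 (0.84), Dram2 (0.83) and Zbtb26 (0.83). These are the top 3 of 11141 genes in each case and carry no test.

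Of 37 further synapse genes (ligands, kinases, scaffold and matrix proteins), 32 were tested. Of all tested genes, 43.3% were higher and 23.8% lower in C26_veh against ctr, and 38.5% and 16.4% in C26_rol against ctr. In C26_rol against C26_veh the shares were 9.78% and 7.32%. Against ctr, C26_veh gave 9 higher and 10 lower calls, 13 genes did not pass, and the median of the 32 changes was 0.04. In C26_rol against ctr 10 were higher, 6 lower and 16 did not pass, and in C26_rol against C26_veh 7 were higher, 1 lower and 24 did not pass. The enzyme that ends transmission, acetylcholinesterase (Ache), had 4.55 ± 3.11 RPKM in C26_rol, 3.24 ± 1.87 in C26_veh and 16.4 ± 1.81 in ctr, a change of -2.17 in C26_veh (adjusted p = 1.74e-06) and -1.82 in C26_rol (adjusted p = 6.63e-05) against ctr. Its collagen tail gene Colq fell beside it, by 1.26 in C26_veh and by 1.38 in C26_rol. Tumour and ctr libraries did not overlap for either gene.

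The signalling and scaffold genes moved in both directions. Pak1, a kinase downstream of MuSK, was at -1.61 in C26_veh and -1.12 in C26_rol against ctr, while Ank3, a scaffold that anchors sodium channels in the junctional folds, rose by 1.05 in C26_veh and 0.91 in C26_rol. Lama5, the laminin alpha5 chain of the synaptic matrix, rose by 0.75 in C26_veh and 1.15 in C26_rol, Dag1, dystroglycan, by 1.04 and 0.61, and Erbb2, a neuregulin receptor, by 0.24 and 0.50 in the same order, although under 1 of the scalings the Erbb2 call in C26_veh and the Dag1 call in C26_rol were lost. Erbb2 passed the filter only through tumour libraries, where it is high (ctr median 0.958 RPKM, highest 1.04). Its calls against ctr and its place among the higher synapse genes there only describe the values. The muscle sodium channel gene Scn4a was lower in both, by 0.38 in C26_veh (a call lost in 4 of 14 fits without 1 library) and 0.51 in C26_rol (lost without C26_rol replicate 2). Agrn, Utrn and Erbb3, which encode agrin, utrophin and a neuregulin receptor, did not pass in any comparison, with C26_veh against ctr changes of 0.06, -0.08 and -0.12.

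With rolipram against vehicle, the scaffold gene Dvl1, known to bind MuSK, was higher by 0.46 (adjusted p = 0.00562), and Sntb1, beta1-syntrophin, by 0.88 (adjusted p = 0.0133), a call lost when only those 2 groups were fitted. Sntb1 had 2.40 ± 0.753 RPKM in C26_rol, 0.973 ± 0.973 in C26_veh and 2.46 ± 0.274 in ctr. Pak1 was higher by 0.49 and Dag1 lower by 0.44, and the Dag1 call was lost in 7 of 12 fits without 1 library and the Pak1 call in 4 of 12, and both when only those 2 groups were fitted. Without C26_veh replicate 3, 4 synapse genes were called higher and 0 lower. The shares of all tested genes given above for the synapse genes apply to the next list too. Of 5 glycosylation genes mutated in human congenital myasthenic syndromes, 2 were higher (Dpagt1 at 0.57 and Gfpt1 at 0.38) and 1 lower (Gmppb at -0.37) in C26_veh against ctr. In C26_rol against ctr, Dpagt1 (0.77) and Gfpt1 (0.45) were higher and none was lower, and against C26_veh Gmppb alone was higher, by 0.47. The Gmppb call in C26_veh against ctr was lost without C26_veh replicate 3, and that in C26_rol against C26_veh in 7 of 12 fits without 1 library and when only those 2 groups were fitted. The Gfpt1 call in C26_veh was lost under quantile normalisation. Without 1 library the Gmppb change was -0.44 to -0.30 in C26_veh against ctr and 0.32 to 0.60 in C26_rol against C26_veh.

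The list of transcripts known to rise in denervated rodent muscle held 17 genes, of which 11 were tested. In C26_veh against ctr 8 were higher, 1 was lower and 2 did not pass (median change 1.01, against 0.15 for all tested genes). In C26_rol against ctr 8 were higher, none was lower and 3 did not pass (median 1.78, against 0.15). Of all tested genes, 43.3% were higher and 23.8% lower in C26_veh, and 38.5% and 16.4% in C26_rol. Myh3, Myh8, Kcnn3 and Dclk1, below the filter and highest in ctr, are not in these counts or medians, which describe the tested genes only. The ubiquitin ligase genes Trim63 and Fbxo32, which rise in many forms of muscle wasting, were at 4.42 and 4.24 in C26_veh and at 3.31 and 3.37 in C26_rol. Gadd45a, a stress gene that HDAC4 is known to raise after nerve injury, was at 2.55 in C26_veh and 2.03 in C26_rol. The cell cycle inhibitor gene Cdkn1a (3.48 in C26_veh and 3.24 in C26_rol) and Ankrd1 (2.71 in C26_veh and 3.65 in C26_rol), both named after their values were seen, changed by more than Gadd45a in each comparison with ctr. Runx1, a transcription factor of denervated muscle, had 1.52 ± 0.675 RPKM in C26_rol, 1.36 ± 0.232 in C26_veh and 0.319 ± 0.212 in ctr. It was called higher in both tumour groups (limma adjusted p = 7.76e-06 in C26_veh and 1.92e-05 in C26_rol). No ctr library reached 1 RPKM for Runx1 (highest 0.776). Runx1 passed the filter only through tumour libraries, where it is high, so these p-values and its place among the 8 only describe the values. The same holds for Sln, also among the 8 in both comparisons and named after its values were seen. Its ctr median was 0.605 RPKM, and its lowest values were 2.55 in C26_veh and 3.49 in C26_rol. The median of 1.78 in C26_rol is the change of Sln itself, so that median only describes the values too.

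The myogenic regulators of that list did not follow the ligases. Myog, the myogenin gene that drives receptor and ligase genes after denervation, had 9.18 ± 3.53 RPKM in C26_rol, 3.95 ± 1.14 in C26_veh and 5.52 ± 2.70 in ctr. It did not pass in C26_veh against ctr (-0.32, adjusted p = 0.223), and it was higher in C26_rol than in C26_veh by 1.01 (adjusted p = 0.0107), with no overlap of libraries. Against ctr, C26_rol was higher by 0.69 (adjusted p = 0.0249), a call lost in 4 of 8 other settings. Myod1 had 14.0 ± 7.00 RPKM in C26_rol, 5.48 ± 3.40 in C26_veh and 12.9 ± 2.71 in ctr. It fell by 1.28 in C26_veh against ctr (adjusted p = 0.00149) and was higher in C26_rol than in C26_veh by 1.30 (adjusted p = 0.0168), a call lost without C26_rol replicate 4 and when only those 2 groups were fitted. Over the 12 fits without 1 library that change was 1.01 to 1.50. Hdac4, the deacetylase that links denervation to Myog, was at 0.26 in C26_veh against ctr and did not pass (adjusted p = 0.124). The embryonic and neonatal myosin genes Myh3 and Myh8, the channel gene Kcnn3 and the kinase gene Dclk1 were below the filter, and for each of these 4 genes the mean was under 1 RPKM in every group and highest in ctr.

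Between rolipram and vehicle the denervation list split, with 2 higher (Myog and Myod1), 4 lower and 5 that did not pass, and a median change of -0.24. Of all tested genes, 9.78% were higher and 7.32% lower in that comparison. Trim63 had 1171 ± 290 RPKM in C26_rol, 2589 ± 810 in C26_veh and 116 ± 22.4 in ctr, a C26_rol against C26_veh change of -1.11 (adjusted p = 0.0016). Fbxo32 changed by -0.87 (adjusted p = 0.0078), Fbxo30, a ligase that promotes muscle loss after denervation, by -0.81 (adjusted p = 0.016) and Hdac4 by -0.53 (adjusted p = 0.0268). The Hdac4 call was lost in 5 of 12 fits without 1 library, and the Hdac4 and Fbxo30 calls when only these 2 groups were fitted.

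**Figure D5:**
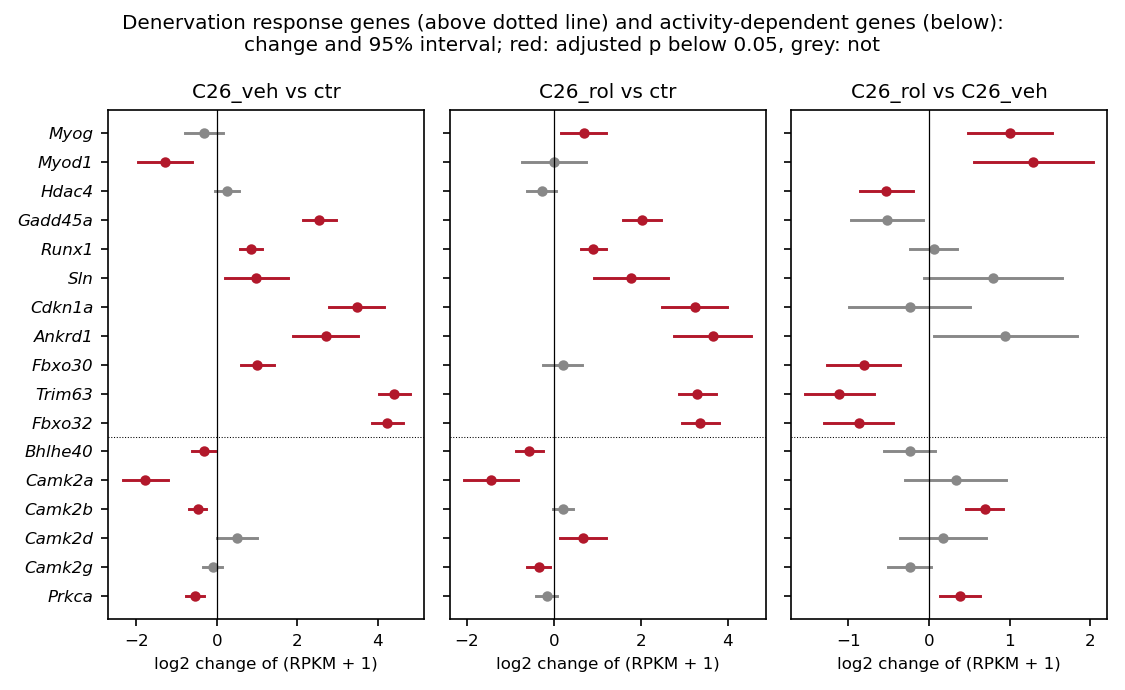
Log2 changes with 95% intervals from limma for the tested genes of the denervation list and of the list of activity-dependent repressors and kinases, 1 panel per comparison; each panel has its own scale, and red points passed at adjusted p below 0.05 and grey points did not. Trim63 (4.42) and Fbxo32 (4.24) stand far above Myog (-0.32) and Myod1 (-1.28) in C26_veh against ctr, and in C26_rol against C26_veh the ligases lie below 0 and Myog and Myod1 above it.

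Genes that carry the activity signal against receptor transcription were tested for 6 of 9 listed. Of all tested genes, 23.8% were lower and 43.3% higher in C26_veh against ctr, and 16.4% and 38.5% in C26_rol against ctr. In C26_rol against C26_veh the shares were 7.32% and 9.78%. In C26_veh against ctr 4 were lower, none higher and 2 did not pass. One of the 4 calls, that of the repressor gene Bhlhe40 (-0.32, adjusted p = 0.0449), was lost in 9 of 14 fits without 1 library and when only those 2 groups were fitted. Camk2a, a calcium-activated kinase subunit, had 31.1 ± 13.8 RPKM in C26_rol, 25.6 ± 13.5 in C26_veh and 80.4 ± 8.37 in ctr, a change of -1.78 in C26_veh (adjusted p = 1.03e-05) and -1.44 in C26_rol (adjusted p = 0.000405). Camk2b fell by 0.47 and Prkca by 0.55 in C26_veh against ctr. In C26_rol against ctr 3 were lower (Camk2a, Camk2g at -0.34 and Bhlhe40 at -0.56), 1 was higher (Camk2d at 0.68, lost under both scalings) and 2 did not pass. The Camk2g call was lost when only those 2 groups were fitted and in 4 of 12 fits without 1 library, and the Camk2d call in 4 of 12. Camk2b was higher in C26_rol than in C26_veh, by 0.69 (adjusted p = 0.000774) with no overlap, as was Prkca, by 0.38 (adjusted p = 0.0333), whose call was lost in 6 of 12 fits without 1 library and when only those 2 groups were fitted, and the other 4 did not pass. The repressor genes Hdac9 and Msc were below the filter. Hdac9 had 0.554 ± 0.143 RPKM in C26_rol, 0.261 ± 0.072 in C26_veh and 0.926 ± 0.131 in ctr, and Msc 0.401 ± 0.113 in C26_rol, 0.475 ± 0.114 in C26_veh and 0.702 ± 0.397 in ctr. Dach2 was not analysed here.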

How the data were processed

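PolyA RNA of mouse gastrocnemius was sequenced from stranded libraries, per the labels' protocols. The tools named are STAR 2.5.3a and featureCounts 1.6.4, with genome build mm10, per the submitters' processing notes. The annotation release, the strand setting and the tool that made the normalised values are not given in the sources used here, so reads of genes that overlap on opposite strands cannot be told apart. The deposited table holds RPKM computed by the authors for 13067 genes in 19 libraries, grouped by their labels.

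Values were analysed as log2(RPKM + 1), which compresses changes near 1 RPKM. A gene was tested where 5 or more libraries reached 1 RPKM. Group differences were tested two-sided in limma 3.58.1 (R 4.3.3) over all libraries in a single fit with trended, robust variance moderation. The fit was tested on simulated data. The Benjamini-Hochberg adjustment ran over the 11141 tested genes, and an adjusted p below 0.05 was called. Correlations used exact permutation tests. Count models do not apply to RPKM and were not used. Gene positions are those of GENCODE M21 on GRCm38.

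Alternatives were another pseudocount, filter, scaling, variance moderation or set of samples, a replicate block, and leaving out each library. All junction genes with a row are named. From each further list, the 3 genes with the smallest adjusted p in the direction with more calls, the 1 in the other direction and a fixed panel of 13 genes could be named. The junction genes and the lists were chosen with earlier results of these data known.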

Additional observations from a re-analysis of the deposited data

Results flagged for a closer look

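Of the 27 combinations of a junction gene and a group, 4 held a library that stood far from the rest of its group, with a gap to its nearest neighbour that was most of the group's range. Chance flags about 1 in 20 such groups. Dok7 in C26_veh replicate 3 was at 0.866 RPKM, against 2.68 to 3.81 in the other 6 C26_veh libraries. That library was also the highest for Musk and the lowest for Chrne, Chrna1, Chrnb1 and Rapsn within its group, and the deepest of all 19. Rapsn in C26_rol replicate 5 was at 33.5 RPKM, against 24.7 to 26.3 in the other 4. Chrnb1 in C26_rol replicate 3 was at 40.5 RPKM, against 48.1 to 50.6 in the other 4, and this library had the highest Musk and Chrne of its group. Chrna1 in ctr replicate 3 was at 6.35 RPKM, against 3.95 to 4.56 in the other 6, and the same library had the highest Chrnd and Ncam1 of the ctr group.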

How the results depend on the processing

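Over all alternatives, the calls of Musk, Dok7, Lrp4, Chrnb1, Chrnd and Chrne against ctr were kept wherever the gene was tested, as was the Musk call between C26_rol and C26_veh. Chrnd and Ncam1 dropped out under the filter at 2 RPKM. Over the alternatives other than leaving out a library, the C26_veh against ctr change was 1.04 to 1.37 for Musk and -2.62 to -2.20 for Chrne, and that of Musk in C26_rol against C26_veh was -1.86 to -1.52 (highest adjusted p 0.014). In C26_rol against C26_veh, 767 genes and 1 junction gene were called when only those groups were fitted, where the fit over all libraries gave 1906 and 2, and leaving out 1 library gave 1114 to 2375 genes and 2 to 3 junction genes. The sign of Chrna1 in C26_veh against ctr turned at a pseudocount of 0.1 (-0.0081), under median-of-ratios scaling (-0.14) and quantile normalisation (-0.10), and without 1 library it was -0.12 to 0.18. That of Rapsn turned under quantile normalisation (-0.0325), and that of Chrnd in C26_rol against C26_veh was -0.094 to 0.0049 without 1 library. The cause was not tested.

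With the replicate number as a block, 1074 genes and 1 junction gene were called in C26_rol against C26_veh (Chrnb1 at adjusted p = 0.0528), and Chrnd turned to 0.042. Chrna1 passed in C26_rol against ctr under the block (adjusted p = 0.00491). Same-numbered libraries did not deviate together throughout (correlations of -0.36 to 0.39), and 3 of 7, 0 of 5 and 0 of 5 libraries were closest to their own number, so the numbers are not taken to pair the libraries. Depth limits Chrnd most, at 26 to 141 reads per library.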

Other observations

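Among the markers of other cell types in whole muscle, macrophage genes were the group with most rises: 6 of 7 tested were higher in C26_veh than in ctr and 5 of 7 in C26_rol, with none lower and none called between C26_rol and C26_veh. Cd163, counted in both, passed the filter only through tumour libraries, where it is high (ctr median 0.964 RPKM), so its place there only describes the values. The listed marker Adgre1 was below the filter, at means of 0.534 RPKM in C26_rol, 0.650 in C26_veh and 0.552 in ctr. For all marker counts, the shares of all tested genes were 43.3% higher and 23.8% lower in C26_veh against ctr. They were 38.5% and 16.4% in C26_rol against ctr, and 9.78% and 7.32% in C26_rol against C26_veh. The complement gene C1qa had 17.3 ± 6.76 RPKM in C26_rol, 20.6 ± 9.02 in C26_veh and 7.12 ± 2.61 in ctr. Of 8 fibroblast and matrix genes, 5 were lower and 1 was higher (Pi16, by 1.02) in C26_veh against ctr, and 5 were lower and none higher in C26_rol against ctr. The collagen gene Col1a1 had 4.53 ± 1.37 RPKM in C26_rol, 8.38 ± 5.71 in C26_veh and 48.6 ± 20.9 in ctr. Of 9 fibre markers, 4 were lower in C26_veh and 5 in C26_rol against ctr, among them Pvalb (-2.30 and -3.22), the calcium buffer of fast fibres, and none was called between the tumour groups.

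Among 11 tested Schwann cell and myelin genes, 2 were higher and 3 lower in C26_veh against ctr, and 1 was lower in C26_rol against ctr, a call lost in 6 of 12 fits without 1 library. That gene, S100b, was also among the 3 lower in C26_veh. It passed the filter only through ctr, where it is high (median 1.345 RPKM, against 0.424 in C26_veh and 0.540 in C26_rol). Its place in both counts therefore only describes the values. Ngfr, a receptor of Schwann cells after nerve injury, had 1.72 ± 2.06 RPKM in C26_rol, 3.77 ± 1.66 in C26_veh and 0.898 ± 0.230 in ctr, and was the gene of this list called between the tumour groups (C26_rol against C26_veh -0.96, limma adjusted p = 0.0323). That call was lost in 7 of 12 fits without 1 library, when only those 2 groups were fitted and under the replicate block. Of 4 tested satellite cell markers, 2 were higher in each tumour group than in ctr (Sdc4 and Cdh15), and Chodl was lower in C26_rol, a call lost in 6 of 12 fits without 1 library and under the replicate block. Pax7, Myf5 and Vcam1 were below the filter. Mean Pax7 was 0.432 RPKM in C26_rol, 0.423 in C26_veh and 0.568 in ctr. In the same order of groups, Myf5 was at 0.738, 0.730 and 0.878, and Vcam1 at 0.807, 0.999 and 0.987. Between C26_rol and C26_veh, Cdh15 was higher by 0.44, a call lost when only those 2 groups were fitted and under the block, and Sdc4 was lower by 0.97. Among 6 endothelial genes, Pecam1 was higher and Kdr lower in both tumour groups against ctr (the Pecam1 call in C26_rol was lost under quantile normalisation), and none was called between them. The 1 tested muscle spindle gene was not called in any comparison.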
